A study of Mus musculus with 6 samples.

Results

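The members of the TGF-beta, BMP and activin signalling pathway were followed in mouse GC-1spg cells with and without an siRNA against Mettl3. The pathway was picked with earlier results of these data known, and its members are set by symbol: every gene of the mRNA table whose symbol is Tgfb, Tgfbr, Bmp, Bmpr, Smad, Acvr or Inhb with its number or letter. This gave 39 of 22298 genes, of which 30 had enough reads to be tested. GC-1spg is an immortalised mouse germ cell line that stands in for spermatogonia at the type B stage, and METTL3 is the catalytic subunit of the complex that writes N6-methyladenosine into messenger RNA. Total RNA was sequenced from 3 libraries of cells given a control siRNA (si-NC, called the controls) and 3 of cells given an siRNA against METTL3 (si-METTL3). All 6 cultures were grown in DMEM with 10% serum, transfected at 60% density and collected 48 h later, so no library is of untransfected cells, although the labels tag the si-NC libraries as untreated. The labels name 1 cell line and do not state if replicates are separate cultures, and p-values therefore reflect only the spread among these libraries, which could be technical.

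TGF-beta, BMP and activin proteins are secreted dimers that bring together a type II and a type I receptor kinase at the cell surface. The type I receptor then phosphorylates receptor SMADs, SMAD2 and SMAD3 for TGF-beta and activin and SMAD1, SMAD5 and SMAD9 for BMP, which enter the nucleus with SMAD4 and bind target genes. SMAD6 and SMAD7 inhibit the receptors and are themselves induced by the pathway. In the testis the family acts between somatic and germ cells, and activin and BMP4 are known for their part in the differentiation of spermatogonia.

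The labels print the siRNA against METTL3 and give the same letters for the control siRNA, which leaves the true control sequence unknown. The siRNA is shown because its guide strand can also pair with other transcripts through its seed, bases 2 to 8 from its 5′ end, and the capitals mark the 7 bases of the printed strand that pair with that seed.
siRNA: gctaccgtatgGGACATTa
Of the coding genes of the GENCODE M21 annotation, represented by their longest protein-coding transcript, Mettl3 alone held all 19 bases. Counts of Mettl3 were 606, 578 and 683 in control replicates 1, 2 and 3 and 142, 134 and 136 with si-METTL3. Its mean fell from 18.3 ± 0.974 to 5.31 ± 0.785 CPM (counts scaled by edgeR's effective library sizes; SD, n = 3). On the log2 scale this was -1.79 (edgeR adjusted p = 0.000579, SE 0.14). Its level in the controls was thus above that in si-METTL3 in every library, as the labels have it. The 7-base match GGACATT occurred in 2 of the 7 members that rose (Bmp1 and Tgfb3), in 8 of the 23 tested members that were not called and in 23.9% of 13075 tested genes.

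The mRNA counts summed to 29679593 to 37698956 per control library and to 22146057 to 31469144 per si-METTL3 library. Of 9 germ line markers, Dppa3 and Mael had no count in any library, Dazl at most 1, Stra8 0 to 3, Ddx4 1 to 7 and Zbtb16 1 to 35, while Kit had 14 to 55 counts, Gfra1 78 to 140 and Piwil2 59 to 162. Of 7 Sertoli cell markers, Rhox5 had 1 to 6 counts and the other 6 had 148 (Amh) to 7693 (Wt1). Most of these germ line markers were thus near 0 counts and most of the Sertoli cell markers were not, although the line is named as a germ cell line. A pair of library features has to be kept in view. Counts of lung genes (10 markers summed, such as Sftpc) were at 3.62 and 2.12 CPM in control replicates 1 and 2, at 55.3 in control replicate 3 and at 57.2 to 83.6 with si-METTL3. The other feature is base composition: per 10 percentage points of transcript GC content, levels shifted on the log2 scale by -0.22 in control replicate 2, against 0.13 and 0.25 in control replicates 1 and 3 and -0.17 to 0.10 after si-METTL3. Per doubling of transcript length the shift was -0.13, 0.04 and -0.15 in control replicates 1, 2 and 3 and 0.03, 0.09 and 0.11 after si-METTL3.

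The pathway's genes that edgeR called on all 6 libraries, without a correction, were higher in si-METTL3, by 1.24- to 1.79-fold. They were the TGF-beta ligands Tgfb2 and Tgfb3, the co-receptor Tgfbr3, the activin type I receptor Acvr1b and the BMP ligand Bmp4. The procollagen protease Bmp1 and the inhibitory SMAD Smad6 were the others. No member was called lower in this fit. This is 7 of the 30 tested members at an adjusted p under 0.05 higher and 0 lower, where 8.67% of the 13082 tested genes were called higher and 10.2% lower. At an unadjusted p under 0.05, 11 members were higher and 3 lower (Tgfbr2, Smad4 and Acvr1). The share of all tested genes at that threshold was not counted, so these numbers have no background. DESeq2 called 7 higher and 1 lower (Tgfbr2), beside 9.17% and 10.9% of all genes it tested. With a correction for transcript length the split was 6 higher and 2 lower, beside 6.9% and 10.1% of all genes. With length and GC content together it was 9 higher and 5 lower, beside 13.1% and 15.2%. The median log2 fold change of the 30 members was 0.31, against 0.03 over all tested genes. It was above 0 in 24 members and below 0 in 6, whereas 53.0% of all tested genes lay above 0, and with length and GC correction 17 members lay above 0 and 13 below.

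The libraries of the groups did not overlap in 10 members that were higher and 3 that were lower in si-METTL3, beside 20.2% and 21.3% of all tested genes. Leaving out 1 library at a time, Tgfb2, Tgfb3, Tgfbr3 and Smad6 passed in all 6 fits, as 2.04% of all tested genes did in the higher direction. Smad6 and Tgfb2 came near the threshold. The largest edgeR adjusted p in these fits was 0.0498 for Smad6, 0.0406 for Tgfb2, 0.0187 for Tgfb3 and 0.0178 for Tgfbr3. The count of members called higher was 4, 11 and 7 without control replicates 1, 2 and 3 and 5, 4 and 4 without si-METTL3 replicates 1, 2 and 3. In these fits 2.74%, 17.9%, 6.17%, 4.12%, 2.44% and 2.36% of all tested genes were called higher. The fit without control replicate 2 alone called members lower, 3 of them, where 18.9% of all tested genes were lower.

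**Figure D1:**
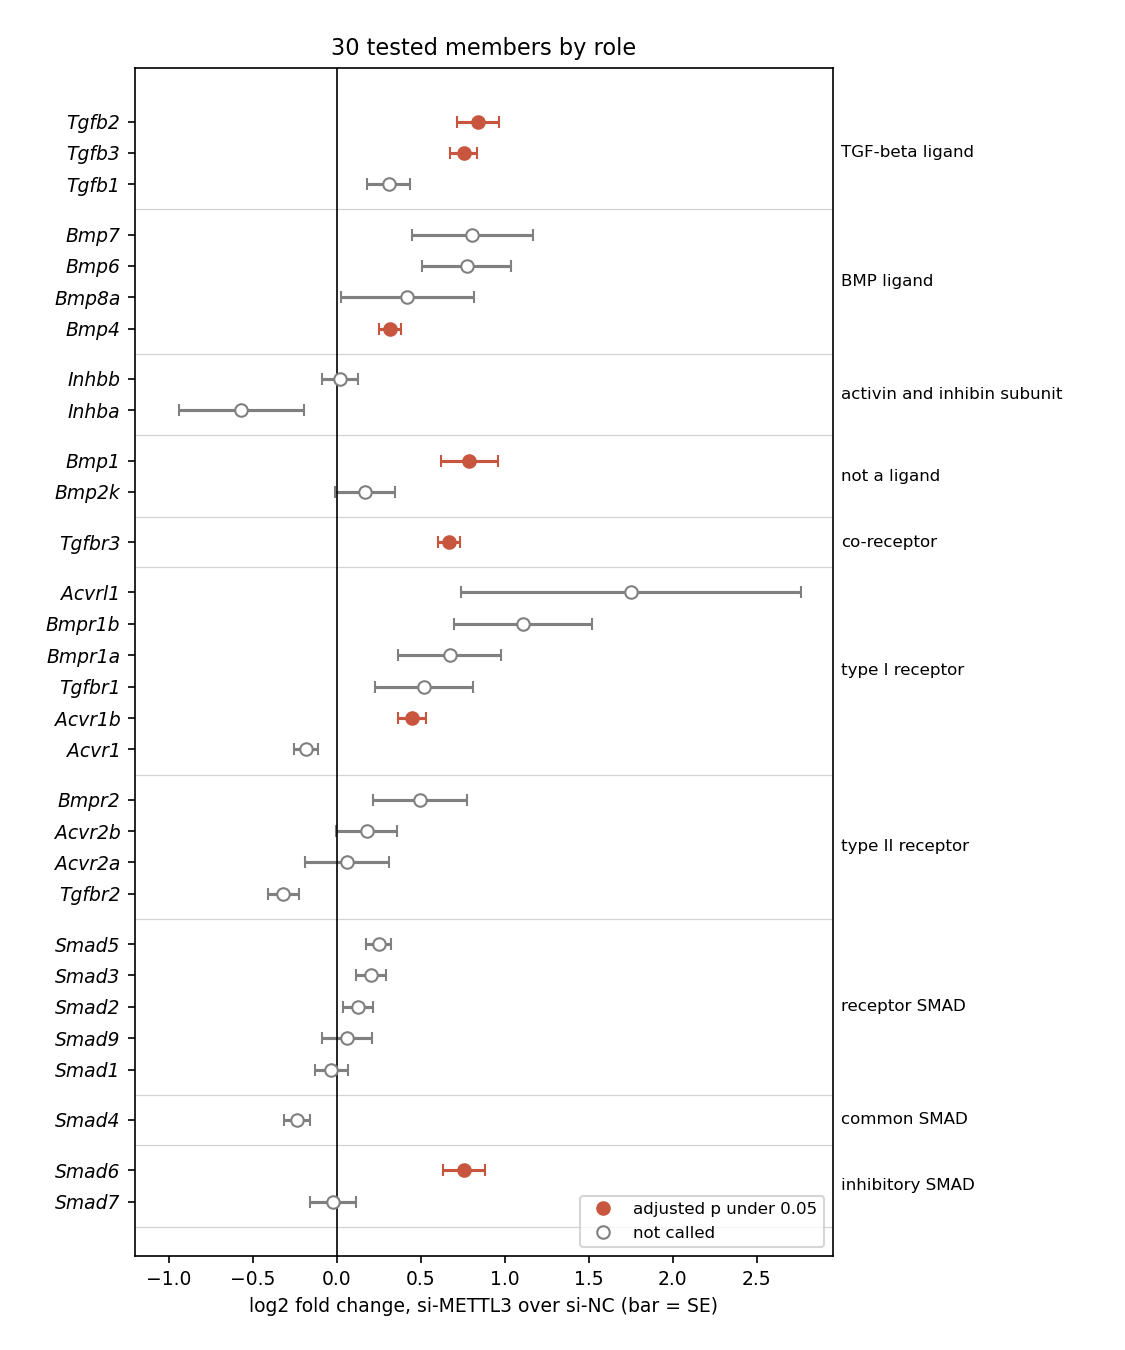
Log2 fold change of si-METTL3 over si-NC (x axis) for the 30 tested members, grouped by role. Points are edgeR estimates and bars are SE. The 7 filled points passed an adjusted p of 0.05 and lie between 0.31 (Bmp4) and 0.84 (Tgfb2), and Acvrl1 has the widest bar (1.75, SE 1.01).

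The TGF-beta ligands come as 3 isoforms that bind the same receptors, with TGF-beta 2 relying most on the co-receptor that Tgfbr3 encodes. Tgfb3 (ENSMUSG00000021253, chr12:86056745-86079041 in GRCm38) stood at 53.0, 46.1 and 52.6 CPM in control replicates 1 to 3 and at 83.4, 85.4 and 87.5 CPM after si-METTL3. Every si-METTL3 library was above every control library. The mean rose from 50.6 ± 3.90 to 85.4 ± 2.04 CPM (SD, n = 3), a log2 fold change of 0.76 (edgeR adjusted p = 0.00209, SE 0.081). Tgfb2 (chr1:186622792-186705989) was at 14.1, 12.1 and 11.1 CPM in the control libraries and 20.4, 24.3 and 21.9 with si-METTL3. It rose from 12.4 ± 1.54 to 22.2 ± 1.97 CPM, a log2 fold change of 0.84 (edgeR adjusted p = 0.00715, SE 0.13), the largest among the called members. Its groups did not overlap either, and it kept a log2 fold change of 0.69 with the length correction.

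Tgfb1, the isoform best known from immune and wound tissue, was not called. Its levels were 23.4, 20.5 and 27.4 CPM in the control libraries and 32.0, 29.1 and 27.2 with si-METTL3, with a log2 fold change of 0.31 (edgeR adjusted p = 0.136, SE 0.13). Here control replicate 3 reached above the lowest si-METTL3 library. With length and GC correction Tgfb1 passed (adjusted p = 0.0171) at a log2 fold change of 0.32.

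**Figure D2:**
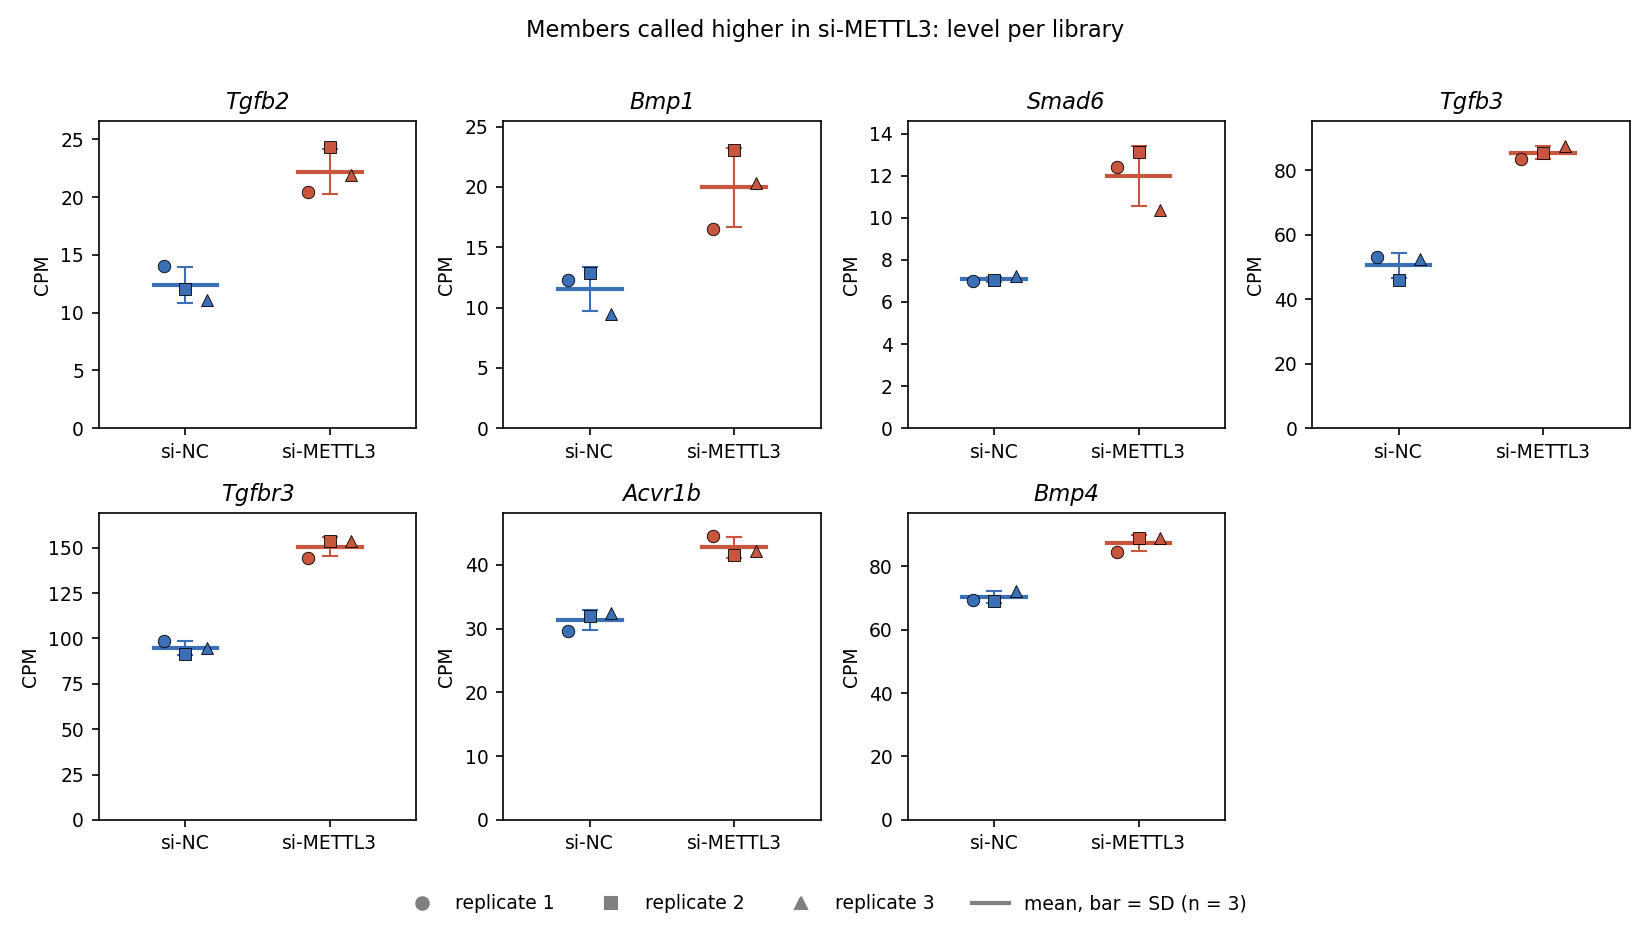
CPM per library (y axis, from 0) of the 7 members called higher, 1 panel per gene. Points are libraries, marked by replicate, and lines and bars are mean and SD (n = 3). In each panel the 3 si-METTL3 points lie above the 3 si-NC points, and the ratio of the nearest points is smallest in Bmp4 (72.3 CPM at most in si-NC, 84.5 at least in si-METTL3).

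Among the BMP ligands, Bmp4 was the only abundant gene. BMP4 is a ligand for BMP type I receptors and acts in germ cell formation. Bmp4 (chr14:46383520-46390669) was measured at 69.5, 69.1 and 72.3 CPM in the control libraries and 84.5, 88.9 and 88.9 with si-METTL3. The means were 70.3 ± 1.78 and 87.4 ± 2.56 CPM, a rise of 0.31 on the log2 scale (edgeR adjusted p = 0.0199, SE 0.065). The spread within each group was small beside this difference, but with 1 library fewer the call was lost in 4 of the 6 fits. The adjusted p became 0.0968 when control replicate 1 was left out and 0.0557, 0.0920 and 0.0938 when si-METTL3 replicate 1, 2 or 3 was. It passed without control replicate 2 (0.0136) or replicate 3 (0.0487).

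Bmp6, Bmp7 and Bmp8a were tested at low counts and none passed. Bmp6 had 75, 35 and 67 counts in the control libraries and 84, 74 and 71 with si-METTL3, which is 2.14, 1.16 and 1.83 and 2.63, 3.30 and 2.88 CPM. Its groups did not overlap in CPM, but the log2 fold change of 0.77 had a wide error (edgeR adjusted p = 0.0814, SE 0.26). Bmp7 gave 0.81 (edgeR adjusted p = 0.156, SE 0.36) and Bmp8a 0.42 (edgeR adjusted p = 0.471, SE 0.39), both with overlapping libraries. Bmp8a and Bmp8b are near-identical neighbours, and the way shared reads were divided between them is not stated. Bmp8b had 0 to 2 counts per library, Bmp10 0 to 3, Bmp2 0 to 3, Bmp3 0 to 8 and Bmp5 0 to 6, all too few to be tested. Bmp3 had 0, 1 and 2 counts in the control libraries and 8, 6 and 7 with si-METTL3. Bmp15, an oocyte ligand, had no count in any library, which allows up to 0.0817 to 0.134 CPM per library at 3 counts, for counting error alone.

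The symbols Bmp1 and Bmp2k do not stand for ligands. Bmp1 encodes a secreted metalloprotease that cleaves procollagen and frees BMPs from the antagonist chordin. Bmp1 (chr14:70474558-70520234) had 12.3, 12.9 and 9.45 CPM in the control libraries and 16.5, 23.0 and 20.4 with si-METTL3, all of the latter above all of the former. It rose from 11.5 ± 1.83 to 20.0 ± 3.28 CPM, a log2 fold change of 0.79 (edgeR adjusted p = 0.0216, SE 0.17). Without control replicate 1 the adjusted p was 0.0701, without control replicate 3 0.0530, and without si-METTL3 replicate 2 or 3 it was 0.0866 or 0.0817, so the call was lost in 4 of the 6 fits. Bmp2k, a kinase of the endocytic machinery, had 23.9, 28.0 and 21.5 CPM in the control libraries and 24.2, 23.6 and 34.8 with si-METTL3. The last of these stood apart, and the log2 fold change of 0.17 (edgeR adjusted p = 0.522, SE 0.18) changed sign without it (-0.035) and with the length correction (-0.060) or the length and GC correction (-0.090).

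Inhba and Inhbb encode the beta subunits that pair into activins, or with the alpha subunit into inhibins, hormones of the Sertoli cell. Inhba was at 12.8, 25.5 and 8.99 CPM in the control libraries and 8.54, 12.8 and 10.6 with si-METTL3. A single library, control replicate 2, stood above all others, and the groups overlapped. The log2 fold change was -0.57 (edgeR adjusted p = 0.310, SE 0.37), it was -0.043 without control replicate 2 (adjusted p = 0.894) and -0.84 with length and GC correction (adjusted p = 0.0175). Inhbb was level, at 15.0, 12.9 and 15.7 CPM in the control libraries and 15.3, 14.2 and 14.8 with si-METTL3, and its log2 fold change of 0.021 (edgeR adjusted p = 0.906, SE 0.11) turned to -0.15 with the length correction, -0.12 with length and GC correction and -0.058 without control replicate 2. Inhbc and Inhbe had 1 and 2 counts over all libraries.

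Tgfbr3 encodes betaglycan, which holds TGF-beta 2 and inhibin at the cell surface and presents them to the type II receptors. Tgfbr3 (chr5:107106570-107289629) was at 98.7, 91.3 and 94.5 CPM in the control libraries and 145, 154 and 154 with si-METTL3. The groups were far apart beside their spread. The mean rose from 94.8 ± 3.71 to 151 ± 5.31 CPM, a log2 fold change of 0.67 (edgeR adjusted p = 0.00184, SE 0.068). With the length correction the value was 0.45 (adjusted p = 0.0170), and with length and GC correction 0.51 (adjusted p = 0.00205).

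A further reading of the same locus comes from the lncRNA table, which lists transcripts without a coding frame. It held 23 such transcripts of 17 of the 39 genes, 5 of them at 0 in every library, and 5 were tested. None passed edgeR's threshold, where 0.733% of the 5728 tested transcripts did. At an unadjusted p under 0.05 there was 1, and the share of all transcripts there was not counted. DESeq2 called 1, where it called 3.02% of the 6989 transcripts it gave an adjusted p. Both times it was Tgfbr3-203, with 598, 321 and 399 counts in the controls and 676, 681 and 606 after si-METTL3. Its log2 fold change was 0.89 (SE 0.24; edgeR adjusted p = 0.161; DESeq2 adjusted p = 0.0372), and its groups did not overlap. How reads were divided between this transcript and the coding ones is not given, so the readings are not independent. The other 4, Acvr2a-202, Smad4-205, Smad1-201 and Smad5-204, had edgeR adjusted p of 0.431 to 0.955.

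Type I receptors are the kinases that phosphorylate the SMADs. Acvr1b encodes ALK4, the type I receptor for activin. Acvr1b (chr15:101174067-101213684) was at 29.6, 32.0 and 32.4 CPM in the control libraries and 44.5, 41.5 and 42.1 with si-METTL3. It rose from 31.3 ± 1.52 to 42.7 ± 1.61 CPM, a log2 fold change of 0.45 (edgeR adjusted p = 0.0131, SE 0.081). No control library reached the lowest si-METTL3 library. The value fell to 0.27 with the length correction (adjusted p = 0.0953) and was 0.40 with length and GC correction (adjusted p = 0.00708). The adjusted p was 0.0721 without control replicate 1 and 0.0534, 0.0578 and 0.0616 without si-METTL3 replicates 1, 2 and 3.

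Acvr1, which encodes the BMP receptor ALK2, went the other way without passing. It was at 71.5, 63.8 and 67.2 CPM in the control libraries and 59.4, 59.0 and 60.3 with si-METTL3, without overlap, and the log2 fold change was -0.18 (edgeR adjusted p = 0.124, SE 0.073). It passed without control replicate 2 (adjusted p = 0.0347) and with length and GC correction (-0.16, adjusted p = 0.0499). Acvr1c, the receptor ALK7, had 0 to 7 counts per library and was not tested.

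Bmpr1a (ALK3, for BMP) and Tgfbr1 (ALK5, for TGF-beta) shared a pattern over the libraries. Bmpr1a was at 30.6, 55.6 and 27.6 CPM in the control libraries and 42.9, 63.5 and 74.9 with si-METTL3. Tgfbr1 was at 29.7, 49.2 and 24.6 CPM in the control libraries and 36.0, 50.5 and 61.9 with si-METTL3. In both genes control replicate 2 lay above si-METTL3 replicate 1, so the groups overlapped. The log2 fold changes were 0.67 (edgeR adjusted p = 0.164, SE 0.31) for Bmpr1a and 0.52 (edgeR adjusted p = 0.244, SE 0.29) for Tgfbr1. Without control replicate 2 they were 1.05 (adjusted p = 0.0165) and 0.86 (adjusted p = 0.0297). With length and GC correction they were 0.35 (adjusted p = 0.0430) and 0.20 (adjusted p = 0.149). Bmpr1b, the receptor ALK6, had 40, 45 and 24 counts in the control libraries and 44, 62 and 73 with si-METTL3 and was not called (1.11 on the log2 scale, SE 0.41; edgeR adjusted p = 0.101).

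The type II receptors bind ligand and activate the type I kinase. Tgfbr2, the type II receptor of TGF-beta, was at 238, 192 and 225 CPM in the control libraries and 175, 181 and 169.5 with si-METTL3, with every si-METTL3 library below every control library. Its log2 fold change was -0.32 (edgeR adjusted p = 0.0518, SE 0.091), just outside the threshold. DESeq2 called it lower (adjusted p = 0.0354), as did edgeR with the length correction (-0.51, adjusted p = 0.0318), with length and GC correction (-0.53, adjusted p = 0.0242) and in the fit without control replicate 2 (-0.40, adjusted p = 0.00487). The ligands Tgfb2 and Tgfb3 and this receptor thus had values of opposite sign.

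Bmpr2 and Acvr2a, the type II receptors for BMP and activin, resembled Bmpr1a over the libraries. Bmpr2 was at 55.3, 97.4 and 50.8 CPM in the control libraries and 70.1, 107 and 109 with si-METTL3. Acvr2a was at 21.4, 34.2 and 18.3 CPM in the control libraries and 20.5, 28.4 and 28.1 with si-METTL3. Again control replicate 2 stood above the other control libraries. Bmpr2 gave a log2 fold change of 0.49 (edgeR adjusted p = 0.248, SE 0.28), 0.84 without control replicate 2 (adjusted p = 0.0203) and -0.0073 with length and GC correction (adjusted p = 0.951). Acvr2a gave 0.060 (edgeR adjusted p = 0.882, SE 0.25), which turned to -0.089 with the length correction and to -0.27 with length and GC correction (adjusted p = 0.0258). Acvr2b, the second activin type II receptor, was low and not called (log2 fold change 0.18, SE 0.18; edgeR adjusted p = 0.505).

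**Figure D3:**
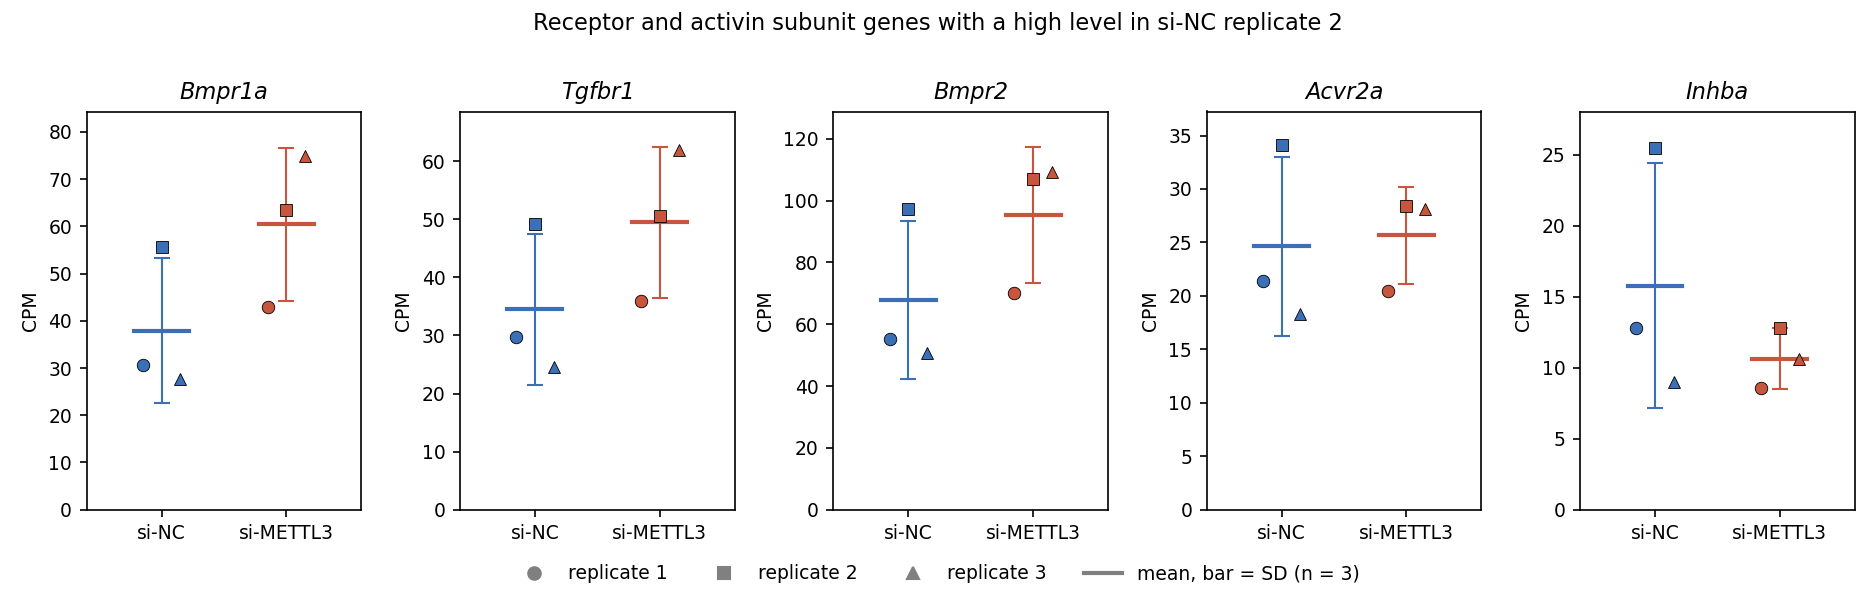
CPM per library (y axis, from 0) of 4 receptor genes and Inhba. Points are libraries, marked by replicate, and lines and bars are mean and SD (n = 3). The genes were chosen for a high square of si-NC replicate 2, for example 55.6 CPM in Bmpr1a beside 30.6 and 27.6.

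These 5 genes were set side by side after their values were seen, for their high level in control replicate 2. Their longest coding transcripts were 5686 to 12899 bases long with a GC content of 39.9% to 41.4%, beside a median of 3201 bases and 50.4% over all tested genes. The 7 called members had medians of 3684 bases and 53.0%, and the 23 tested members that were not called 5090 bases and 49.4%. Control replicate 2 was the library with the steepest fall of level with GC content. That these 5 genes were highest there among the controls was fixed by the choice. Bmpr1b, Smad2, Bmp2k, Smad9 and Bmp1 were also highest in control replicate 2 among the controls. Their GC contents were 42.2%, 44.9%, 46.3%, 48.0% and 58.0%. Correcting for length and GC content lowered the log2 fold change in all 5, from 0.67 to 0.35 in Bmpr1a, 0.52 to 0.20 in Tgfbr1, 0.49 to -0.0073 in Bmpr2, 0.060 to -0.27 in Acvr2a and -0.57 to -0.84 in Inhba, and Bmpr1a, Acvr2a and Inhba then passed. The part of base composition in these values was not tested. The sequence GGACT, a common core of the N6-methyladenosine consensus, occurred at a median of 0.986 per kilobase in the called members, 0.935 in those not called and 1.05 over all tested genes.

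Of the 8 SMADs, Smad6 alone was called by edgeR. Smad6 (chr9:63953076-64022059), an inhibitor of BMP receptors, was at 6.98, 7.03 and 7.22 CPM in the control libraries and 12.4, 13.1 and 10.4 with si-METTL3. It rose from 7.08 ± 0.124 to 12.0 ± 1.43 CPM, a log2 fold change of 0.76 (edgeR adjusted p = 0.00940, SE 0.12). The control libraries were nearly identical, and all si-METTL3 libraries were above them. Smad6 passed only narrowly without control replicate 1 (edgeR adjusted p = 0.0498) and without si-METTL3 replicate 2 (0.0489). Smad7, the other inhibitory SMAD, was not called and was at 34.1, 26.9 and 30.9 CPM in the control libraries and 34.8, 26.6 and 29.0 with si-METTL3. Its log2 fold change of -0.023 (edgeR adjusted p = 0.919, SE 0.14) was 0.059 without control replicate 1. The difference between Smad6 and Smad7 was not tested.

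None of the 5 receptor SMADs was called. For TGF-beta and activin, Smad3 was at 199.9, 165 and 191 CPM in the control libraries and 222, 202 and 216 with si-METTL3, a log2 fold change of 0.20 (edgeR adjusted p = 0.148, SE 0.089), and its groups did not overlap. Limma on log2(FPKM + 1) called Smad3 higher (0.33, adjusted p = 0.0431), while the length correction left 0.023. Smad2 was at 63.9, 66.5 and 59.3 CPM in the control libraries and 63.6, 68.4 and 74.8 with si-METTL3 (0.12, SE 0.088; edgeR adjusted p = 0.344), with overlap, and turned to -0.21 with length and GC correction.

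For BMP, Smad5 was at 74.8, 73.3 and 67.3 CPM in the control libraries and 82.8, 87.9 and 85.1 with si-METTL3. Its groups did not overlap, and the log2 fold change of 0.25 (edgeR adjusted p = 0.0536, SE 0.073) missed the threshold narrowly. It passed without control replicate 2 (adjusted p = 0.0324), but became -0.042 with length and GC correction. Smad1 was level, at 27.9, 23.8 and 27.3 and 25.9, 24.4 and 27.0 CPM, with a log2 fold change of -0.033 (edgeR adjusted p = 0.833, SE 0.099) that was 0.029 with limma. Smad9 was low and level, at 7.07, 8.42 and 6.78 and 7.10, 7.26 and 8.84 CPM, and its log2 fold change of 0.059 (edgeR adjusted p = 0.797, SE 0.15) became -0.16 with the length correction.

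Smad4, the partner of all receptor SMADs, was lower without passing. Its levels were 78.2, 72.6 and 83.7 CPM in the control libraries and 68.1, 65.3 and 65.6 with si-METTL3, and the groups did not overlap. The log2 fold change was -0.24 (edgeR adjusted p = 0.0732, SE 0.077). It passed without control replicate 2 (-0.29, adjusted p = 0.0164), with the length correction (-0.29, adjusted p = 0.0499) and with length and GC correction (-0.21, adjusted p = 0.0210).

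Levels of different genes can be compared as FPKM, the authors' deposited values scaled to transcript length and library total. On this scale Tgfbr2 was the highest member in the controls (39.6 ± 3.92 FPKM; SD, n = 3), followed by Smad3 (33.2 ± 3.50) and Bmp4 (31.3 ± 0.692), and neighbours in this order overlapped between libraries. Smad4 (23.6 ± 2.40), Acvr1 (22.8 ± 0.741) and Smad2 (22.3 ± 1.50) came next and did not differ beyond their spread. Tgfbr3 was at 14.9 ± 0.936, Tgfb3 at 12.2 ± 0.795, Smad7 at 12.2 ± 1.51 and Tgfb1 at 10.6 ± 1.62 FPKM. In si-METTL3 the order at the top was Smad3 (41.9 ± 2.77), Bmp4 (39.3 ± 0.482) and Tgfbr2 (32.1 ± 1.82 FPKM). Tgfbr3 (24.9 ± 1.26) and Tgfb3 (20.9 ± 0.215) then stood near Smad2 (23.2 ± 1.45) and Acvr1 (21.7 ± 0.866).

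**Figure D4:**
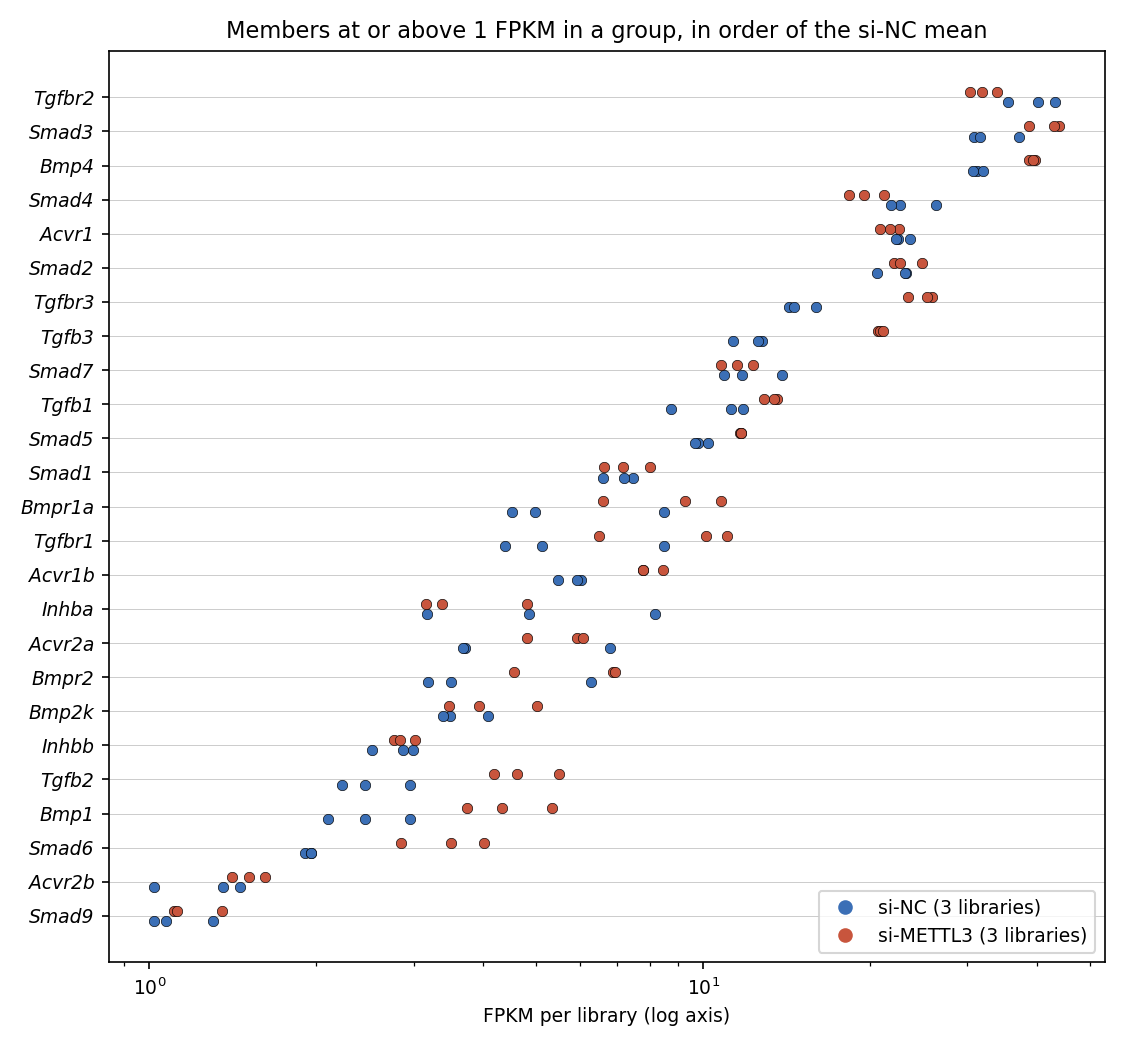
FPKM per library (x axis, log scale) of the members at or above 1 FPKM in a group, in order of the si-NC mean. Each point is a library, 3 for si-NC and 3 for si-METTL3. Tgfbr2 is at the top with 35.5 to 43.2 FPKM in si-NC and 30.4 to 34.0 after si-METTL3.

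Each class of protein had a leading gene by FPKM. Bmp4 was 96.4% ± 1.02 of the summed FPKM of the 10 BMP ligands in the controls and 95.6% ± 0.837 after si-METTL3. Tgfb3 was 48.3% ± 1.70 of the TGF-beta ligands in the controls and 53.6% ± 0.754 in si-METTL3, while Tgfb1 went from 41.6% ± 2.75 to 34.1% ± 1.15 and Tgfb2 from 10.1% ± 1.47 to 12.2% ± 1.60. In every library Tgfb3 was the largest share and Tgfb2 the smallest. Tgfbr2 was 79.3% ± 7.15 of the type II receptors in the controls and 70.9% ± 3.64 in si-METTL3, with overlapping libraries. Acvr1 was 55.9% ± 6.08 of the type I receptors in the controls and 44.6% ± 4.76 in si-METTL3, where si-METTL3 replicate 1 (50.0%) was above control replicate 2 (48.9%). Of the 8 SMADs, Smad3 held 29.8% ± 1.63 in the controls and 34.9% ± 1.58 in si-METTL3, and Smad4 21.2% ± 2.41 and 16.5% ± 1.56, both without overlap. Smad6 held a small share, 1.75% ± 0.112 and 2.89% ± 0.549. These shares were described and not tested.

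Acvrl1 encodes ALK1, a type I receptor known from endothelial cells. It had 2, 1 and 49 counts in the control libraries and 58, 41 and 32 with si-METTL3. Thus control replicate 3 lay with the si-METTL3 libraries and far above the other control libraries. The log2 fold change of 1.75 (edgeR adjusted p = 0.255, SE 1.01) was not called, but it was 5.02 without control replicate 3 (adjusted p = 0.00403), where 6.17% of all tested genes were called higher. The summed levels of lung, endothelial, macrophage and blood markers were likewise higher in control replicate 3 than in the other control libraries. The 10 lung markers together had 3.62, 2.12 and 55.3 CPM in control replicates 1 to 3 and 83.2, 83.6 and 57.2 in si-METTL3, and none of the 10 was at 0 throughout. The 7 endothelial markers reached 12.1, 13.3 and 18.7 CPM in the controls and 22.5, 21.2 and 19.2 after si-METTL3. Of these Cldn5 had 0, 0 and 17 counts in the controls and 33, 15 and 9 in si-METTL3, and Cdh5 4, 4 and 72 in the controls and 95, 64 and 44 after si-METTL3, whereas Kdr, the largest part of the sum, was at 9.75 to 11.1 CPM over all 6 libraries. The 6 macrophage markers gave 4.85, 4.94 and 17.9 CPM in the controls and 24.5, 26.2 and 19.0 in si-METTL3, of which Cd68 made up 4.48, 4.34 and 5.09 and then 5.48, 5.70 and 5.64. The 5 blood markers were at 0.456, 0.796 and 12.1 in the controls and 18.8, 15.9 and 12.4 after si-METTL3. The 9 germ line markers summed to 7.61, 7.99 and 10.1 CPM in the controls and 9.79, 9.63 and 10.3 after si-METTL3. In this sum control replicate 3 was nearest to si-METTL3, but its genes differed, with 1 called higher and 1 lower. Piwil2 was at 4.50, 4.58 and 4.41 CPM in the controls and 2.94, 2.63 and 2.52 after si-METTL3. The 7 Sertoli cell markers summed to 288 to 333 CPM in the controls and 530.1 to 573 after si-METTL3, and the 6 mesenchymal markers to 2328 to 2763 and 2299 to 2492. Both sums hold genes that went opposite ways. Of the Sertoli cell markers, 3 were called higher and 1 lower, beside 8.67% and 10.2% of all tested genes. Of the mesenchymal markers, 2 were called higher and 1 lower. Trf was at 29.9 to 39.2 CPM in the controls and 122 to 128 after si-METTL3. Gata4 was at 37.2 to 43.8 and 28.9 to 32.5. Pdgfra was at 38.3 to 41.9 and 67.2 to 73.5, and Vim at 684 to 845 and 446 to 467. The part of the marker lists in the Acvrl1 values was not tested, and neither was the source of the lung, blood, endothelial and macrophage reads. These counts do not show that such cells were in the cultures. In bulk libraries more cells of a type and more RNA per cell cannot be told apart.

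**Figure D5:**
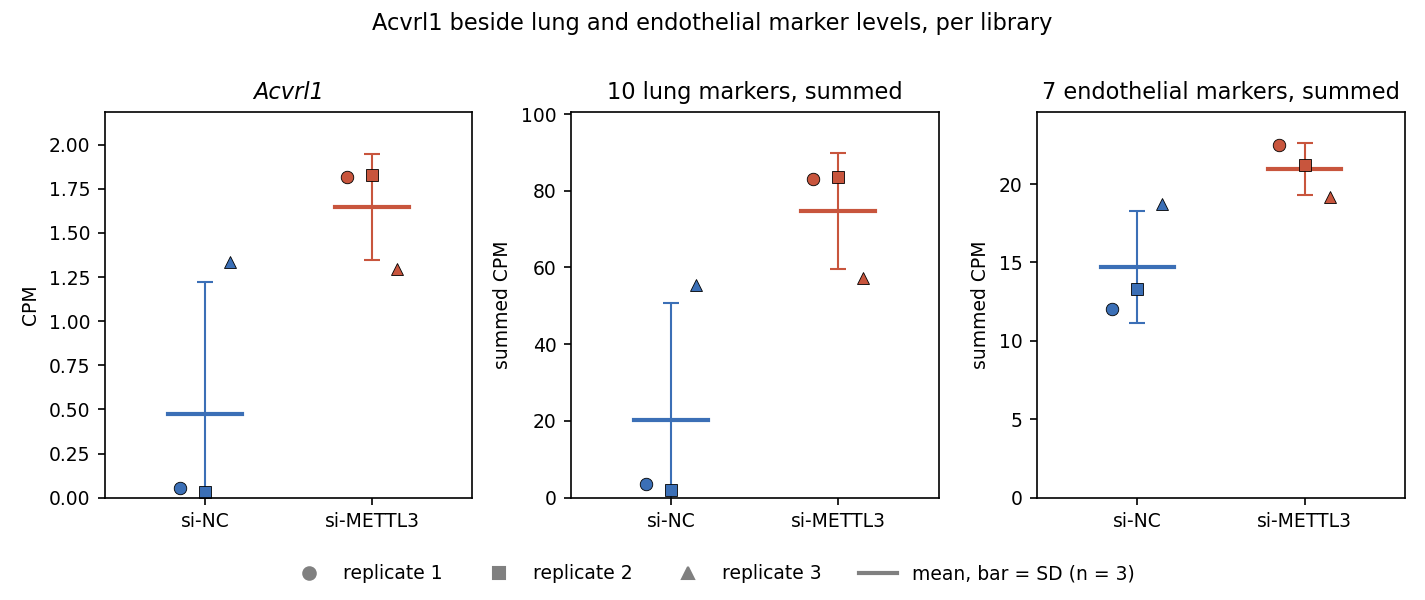
CPM per library (y axes, from 0) of Acvrl1, of 10 lung markers summed and of 7 endothelial markers summed. Points are libraries, marked by replicate, and lines and bars are mean and SD (n = 3). Bars that would pass below 0 end at the axis. In each panel the triangle of si-NC replicate 3 stands above the other 2 si-NC points, at 1.33 CPM for Acvrl1 and 55.3 CPM for the lung markers.

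Proteins that hold, mask or present the ligands outside the cell were described as a list of 35 genes. Of 23 tested, 6 rose and 2 fell by edgeR, beside 8.67% and 10.2% of all tested genes, with a median log2 fold change of 0.25. The risers included Ltbp2 (0.75, adjusted p = 0.00497), a microfibril-associated protein, and Fbn1 (0.35, adjusted p = 0.0169), the fibrillin of the microfibrils that hold latent TGF-beta. The others were Emilin1 (0.64, adjusted p = 0.0162), an inhibitor of TGF-beta maturation, the BMP antagonist Chrd (0.81, adjusted p = 0.0372), and the BMP-binding proteins Crim1 (0.37, adjusted p = 0.0244) and Bmper (0.25, adjusted p = 0.0430). Ltbp2 had 13.7, 12.0 and 13.6 CPM in the control libraries and 20.7, 23.5 and 22.1 with si-METTL3. It was the only one of the 8 called in all 6 fits without 1 library. Thbs1, an activator of latent TGF-beta, fell by 0.41 on the log2 scale (edgeR adjusted p = 0.0208), and Fstl3, an activin trap, by 0.49 (edgeR adjusted p = 0.0495). Chrd is a substrate of Bmp1 and was at 4.45, 3.08 and 2.97 CPM in the control libraries and 5.16, 6.46 and 6.77 with si-METTL3. With length and GC correction Fbn1 was 0.057 (adjusted p = 0.760). The calls in this list numbered 2, 10 and 4 without control replicates 1, 2 and 3 and 2, 1 and 2 without si-METTL3 replicates 1, 2 and 3. In these fits 5.66%, 36.8%, 12.2%, 10.3%, 5.15% and 4.99% of all tested genes were called in either direction. DESeq2 did not call Bmper (adjusted p = 0.0868).

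Other ligands of the family, such as growth differentiation factors, Amh and Inha, made a list of 16 genes, of which 7 were tested. Gdf15, a stress-induced ligand, went down from 1.05 ± 0.135 to 0.469 ± 0.0220 CPM (SD, n = 3), which is -1.16 on the log2 scale (edgeR adjusted p = 0.0313, SE 0.28). It had 39, 27 and 42 counts in the control libraries and 15, 11 and 11 with si-METTL3, and DESeq2 did not call it (adjusted p = 0.0825). Of the fits without 1 library, that without control replicate 2 alone called it. No other gene of this list passed, and the median was -0.17.

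Intracellular regulators, which add ubiquitin to receptors or SMADs, repress them or anchor them, made a list of 25 genes. Of 23 tested, 0 rose and 1 fell, beside 8.67% and 10.2% of all tested genes, with a median log2 fold change of 0.04. At an unadjusted p under 0.05, 3 were higher and 5 lower, a threshold at which the share of all genes was not counted. DESeq2 called 2, where it called 20.1% of all genes in either direction. The gene edgeR called was Tgif1, a repressor that binds SMADs, at 52.4, 42.8 and 46.0 CPM in the control libraries and 37.4, 36.5 and 36.3 with si-METTL3 (-0.36, SE 0.096; edgeR adjusted p = 0.0411). Without control replicate 2 there were 12 calls in this list, where 36.8% of all tested genes were called, and with length and GC correction 9, where 28.3% were. In each of the other 5 fits without 1 library there were 0.

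Genes that SMADs are known to induce were called at a share near that of all genes. Of 26 tested of 30, 3 rose and 2 fell, beside 8.67% and 10.2% of all tested genes, and the median log2 fold change was -0.03. The list had 2, 10 and 3 calls without control replicates 1, 2 and 3 and 2 in each fit without a si-METTL3 library, where 5.66%, 36.8%, 12.2%, 10.3%, 5.15% and 4.99% of all tested genes were called in either direction. Ccn2, a matricellular protein induced by TGF-beta and YAP, had 129, 129.5 and 137 CPM in the control libraries and 74.9, 73.4 and 78.8 with si-METTL3, without overlap. Its mean went from 132 ± 4.70 to 75.7 ± 2.76 CPM (SD, n = 3), a fall of 0.80 on the log2 scale (edgeR adjusted p = 0.000857, SE 0.068) that passed in all 6 fits without 1 library. Ndrg1 also fell (-0.32, edgeR adjusted p = 0.0313). The risers were the smooth muscle actin Acta2 (0.70, adjusted p = 0.0235), fibronectin Fn1 (0.37, adjusted p = 0.0217) and Ltbp2, which is in the list above too. Acta2 was at 6.90, 5.24 and 7.55 CPM in the control libraries and 11.2, 10.7 and 10.2 with si-METTL3, and Fn1 was 0.14 with length and GC correction (adjusted p = 0.350).

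The direct BMP targets Id1, Id2 and Id3, inhibitors of helix-loop-helix factors, were not called. They were picked from the list of SMAD targets after their values were seen and do not stand for all BMP targets. Id1 was at 125, 118 and 145 CPM in the control libraries and 129.9, 142 and 129 with si-METTL3 (0.044, SE 0.095; edgeR adjusted p = 0.763). Id3 was at 56.6, 56.0 and 70.6 CPM in the control libraries and 50.7, 48.7 and 47.2 with si-METTL3 (-0.32, SE 0.11; edgeR adjusted p = 0.0790), without overlap. Id2 was at 10.0, 9.55 and 13.2 CPM in the control libraries and 9.79, 10.2 and 11.6 with si-METTL3 (-0.051, SE 0.16; edgeR adjusted p = 0.834).

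Of the 7 called members, 4 had a promoter entry in RefSeq (GRCm38.p6), and the 250 bases before the start of Tgfb2 and Smad6 are shown because both genes passed in every fit. Capitals mark CAGACA, the SMAD-binding letters, in the first and GGGCGG, the GC box, on either strand in the second.
Tgfb2 (chr1:186705990-186706239, minus strand): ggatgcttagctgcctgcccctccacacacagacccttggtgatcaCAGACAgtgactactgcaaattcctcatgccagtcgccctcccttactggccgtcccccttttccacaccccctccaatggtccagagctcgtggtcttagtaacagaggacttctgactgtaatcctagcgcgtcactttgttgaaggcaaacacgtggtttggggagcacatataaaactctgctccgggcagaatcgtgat
Smad6 (chr9:64022060-64022309, minus strand): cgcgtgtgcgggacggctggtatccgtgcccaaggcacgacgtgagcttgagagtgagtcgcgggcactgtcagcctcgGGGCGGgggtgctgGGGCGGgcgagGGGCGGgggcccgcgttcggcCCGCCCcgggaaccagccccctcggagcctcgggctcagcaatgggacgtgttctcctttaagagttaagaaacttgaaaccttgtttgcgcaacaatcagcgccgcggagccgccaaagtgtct
Each string was searched on both strands. A member counted as holding a string if any of its promoter entries did, whereas the share of all promoters is over single entries. The counts of members and the shares are thus in unlike units. CAGACA stood in the promoter of Tgfb2 alone among the 4, in 3 of the 22 tested members with an entry and in 17.1% of 32851 promoters. GGGCGG stood in Acvr1b, Bmp4 and Smad6, in 18 of the 22 and in 32.7% of all promoters. GGCGCC, letters bound by BMP-activated SMADs, was in 0 of the 4, 6 of the 22 and 9.59% of all, and the cyclic AMP element TGACGTCA in 0, 0 and 1.55%. GTCTAGAC, the palindrome bound by SMAD3 and SMAD4, was in none of the 22 and in 0.167% of all. A match is a description of letters in this window.

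The authors' deposited table gave the same 7 members an adjusted p under 0.05 in the higher direction, where it lists 5.44% of its genes, and Tgfbr2 in the lower direction, where it lists 6.44%. In the authors' deposited table the log2 fold change was 0.90 for Tgfb2, 0.84 for Bmp1, 0.83 for Smad6, 0.77 for Tgfb3, 0.74 for Tgfbr3, 0.46 for Acvr1b, 0.33 for Bmp4 and -0.30 for Tgfbr2. These values come from the same 6 libraries and are not a second measurement.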

How the data were processed

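Total RNA of 6 GC-1spg libraries was compared as 2 groups of 3, named in the sample titles. The submitters' processing notes name the mouse build mm9 and the tools RSEM, StringTie, Bowtie2 and fastp. Their roles and the use of strand are not given in the sources used here, so reads of overlapping or antisense genes cannot be told apart. Per the file headers, the authors deposited counts and FPKM values per gene or transcript and library, log2 fold changes, p-values and adjusted p-values. The deposited counts were whole numbers and were used as they are. The members and the lists were chosen with earlier results of these data known. Members were named where they passed the threshold or reached 5 CPM, and of the lists those genes that passed. Id1, Id2, Id3 and members below 5 CPM were named after their values were seen.

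The test on counts of the whole mRNA table was edgeR's (version 4.0.16, R 4.3.3), with TMM, filterByExpr, a quasi-likelihood fit without covariates and Benjamini-Hochberg adjustment over all genes at 0.05. The lncRNA table was tested separately by transcript. The SE was taken as the ratio of the log2 fold change to the root of the F statistic. Alternatives were DESeq2 1.42.0, upper-quartile normalization, no filter, a replicate block, limma 3.58.1 on log2(FPKM + 1) for genes with a mean of at least 1 FPKM, a correction for transcript length as implied by counts and FPKM, and each library left out. The length and GC correction was added after seeing the data. It used the longest coding transcript in GENCODE M21 (GRCm38), which also gave positions and sequence features, and no coordinate was converted. On simulated counts of 12934 genes, the test found 23.9% of the changes of 1.5-fold, 77.3% at 2-fold and 98.4% at 4-fold, with 12 false calls. The simulated counts held no library-wide shift with GC content, length or lung genes, so these rates need not hold for the real libraries. CPM were scaled to the effective library size, and the limit given for a count of 0 is for counting error alone. Figures were drawn with matplotlib 3.10.9.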

Additional observations from a re-analysis of the deposited data

How the results depend on the processing

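For the 7 members called higher, the direction held under every alternative run. With other tools, scalings and filters 5 to 9 members were called higher, beside 4.3% to 13.1% of all tested genes. With 1 library left out it was 4 to 11, beside 2.36% to 17.9%. Members called lower were 0 and became 1 with DESeq2, 2 with the length correction and 5 with length and GC correction. In these fits 10.9%, 10.1% and 15.2% of all tested genes were called lower. With 1 library left out 0 to 3 members were lower, beside 2.63% to 18.9%. The labels do not say if the replicate numbers pair the libraries. Deviations of same-numbered libraries correlated at 0.07, 0.20 and -0.31, and those of differently numbered ones at -0.40 to 0.34. These values cannot decide on pairing, since the deviations are taken within groups of 3 and hold library-wide shifts. With the replicate number as a block, 1273 genes were called in place of 2468, 4.3% higher and 5.43% lower, and 5 members were called higher (not Acvr1b, adjusted p = 0.0518, nor Bmp4, 0.0588), and the lists gave 2 calls among ligand traps and matrix regulators, 0 among other ligands, 0 among intracellular regulators and 3 among SMAD targets.

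Over all genes the calls were 3707 with length and GC correction and 665 to 4917 with 1 library left out. Ligand traps and matrix regulators (8 calls) gave 4 with the length correction, 12 with length and GC correction and 1 to 10 with 1 library left out. Other ligands (1 call) gave 0 with DESeq2, without a filter and with limma, 2 with length and GC correction and 0 to 1 with 1 library left out. Intracellular regulators (1 call) gave 2 with DESeq2, 3 with limma, 4 with the length correction, 9 with length and GC correction and 0 to 12 with 1 library left out. SMAD targets (5 calls) gave 8 with length and GC correction and 2 to 10 with 1 library left out. Member transcripts of the lncRNA table gave 1 call with DESeq2, where 3.02% of all transcripts were called, and 0 to 0 with 1 library left out.

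Among the genes named, signs turned in members that were not called. With the length correction this was so in Bmp2k (-0.060), Smad9 (-0.16), Acvr2a (-0.089) and Inhbb (-0.15), with length and GC correction in Smad5 (-0.042), Bmpr2 (-0.0073), Smad2 (-0.21), Bmp2k (-0.090), Smad9 (-0.064), Acvr2a (-0.27) and Inhbb (-0.12), and with limma in Smad1 (0.029). With 1 library left out the log2 fold change ran from -0.14 to 0.37 in Acvr2a, -0.035 to 0.28 in Bmp2k, -0.058 to 0.054 in Inhbb, -0.10 to 0.0086 in Smad1, -0.16 to 0.059 in Smad7 and -0.049 to 0.16 in Smad9. The cause of these shifts was not tested.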
